A study of Mus musculus with 13 samples.

Results

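The genotype difference of thymocytes from CtslΔTEC mice was compared between resting cells and cells that had received an antigen signal, to find the genes for which deletion of cathepsin L (CTSL) in the selecting epithelium mattered in one state and not, or differently, in the other. All 13 libraries of the series entered, each from the M2 CD4 single-positive (CD4SP) thymocytes of 1 mouse. The labels give every control mouse as Ctsl fl/fl (WT) and the study calls the controls Ctsl+/+, the name used here, so whether they carried floxed alleles is not settled. Unstimulated cells came from 4 Ctsl+/+ and 5 CtslΔTEC mice, and cells kept for 4 h on plate-bound LLO:I-Ab at 1 µg/ml with soluble anti-CD28 at 250 ng/ml came from 2 other mice of each genotype. Every mouse, controls included, carried the Lm54 TCR transgene and lacked Rag1, on the C57BL/6J background, was 8 to 12 weeks old and of either sex. CtslΔTEC mice delete Ctsl through Foxn1-cre, which acts in thymic epithelial cells, so the sequenced thymocytes themselves kept the gene. The interaction is the log2 difference between CtslΔTEC and Ctsl+/+ in stimulated cells minus that in unstimulated cells. Genes were not preselected, and the interaction was tested for all 14241 genes that passed the filter on low counts, of which 856 (6.01%) had an adjusted p under 0.1, the threshold used by the study.

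M2 cells are the last stage of CD4SP thymocytes, negative for CD69 and positive for MHC class I, and are ready to leave the thymus. A peptide:MHC class II ligand recognised by the TCR, together with CD28 engagement, induces immediate early transcription factors within the first hours, then cytokine receptors, and shifts the cell from quiescence to growth, for which sterols, fatty acids, serine and ribosomes are made. The strength of the self-ligands met in the thymus is known to set the levels of attenuators such as CD5 and CD6, which dampen later TCR signals. A negative interaction means that CtslΔTEC cells ended lower after stimulation than their resting level, relative to Ctsl+/+ cells, would give, and a positive one that they ended higher. Values of single mice are given in order of mouse number, and where values of both genotypes stand side by side those of Ctsl+/+ mice come first.

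The unstimulated libraries held 25692380 to 39127833 estimated counts. Those of stimulated Ctsl+/+ mice 5 and 6 held 8085463 and 27184520, and those of stimulated CtslΔTEC mice 6 and 7 held 11792192 and 16866027. The 12 T cell and CD4 lineage markers, Cd4, Trac and Cd3g among them, were detected in every library, with summed levels of 7070 to 8780 TPM in unstimulated and 7120 to 8800 TPM in stimulated cells. Of 10 M2 stage markers, 4 were lower and 3 higher in resting CtslΔTEC cells at adjusted p under 0.1. After stimulation 4 were lower and 2 higher. Over all genes tested, 12.1% and 13.3% differed in these states. Gamma-delta T, NK and innate-like markers, mostly Trdc, summed to 52.8 to 61.2 TPM in resting Ctsl+/+ cells. In resting CtslΔTEC cells they summed to 71.2 to 101 TPM, with 0 called for the interaction. The part of both lists in the results was not tested. Summed levels of the 10 thymic epithelial markers were 16.4 to 32.0 TPM in all groups, those of 7 B cell markers at most 3.23 TPM, and those of 7 erythroid markers 160 to 771 TPM in unstimulated and 9.67 to 63.1 TPM in stimulated cells, with 0 members called for the interaction by edgeR or DESeq2 in these 3 lists and 1 epithelial marker at an unadjusted p under 0.05. Summed levels of 8 CD8 lineage markers were 186 to 228 TPM in CtslΔTEC against 74.7 to 95.5 TPM in Ctsl+/+ unstimulated cells, and 52.3 to 53.6 against 27.5 to 29.5 TPM after stimulation, with Gzmk at 0 in all libraries and 1 member, Runx3, called. Regulatory T cell markers summed to 11.8 to 23.0 TPM in unstimulated and 254 to 321 TPM in stimulated cells, with Il2ra and Gpr83 called. Of the stimulated sum Il2ra made up 228 to 300 TPM, while Foxp3 was at 0.649 to 0.961 TPM in unstimulated and 0 to 0.514 TPM in stimulated cells. Summed myeloid markers were at 40.4 to 67.7 TPM, with S100a8 and S100a9 at 0 in all libraries, and MHC class II markers at 1.41 to 26.9 TPM, and 0 members of either list were called by edgeR or DESeq2. Most of the myeloid sum was Cst3. Itgax, a dendritic cell marker, was at 0 to 0.238 TPM in unstimulated cells, 2.51 and 8.55 TPM in stimulated Ctsl+/+ and 0.142 and 0.338 TPM in stimulated CtslΔTEC cells (interaction -3.27 ± 1.07, adjusted p = 0.121). It was lower in stimulated CtslΔTEC than in stimulated Ctsl+/+ cells (-3.79 ± 0.79, adjusted p = 0.00799), and its part in the results was not tested. Ctsl itself was at 6.31 to 8.84 and 11.4 to 17.9 CPM (gene counts relative to the TMM-scaled library total) in unstimulated Ctsl+/+ and CtslΔTEC cells and at 6.62 and 3.30 and 6.68 and 6.20 CPM after stimulation, with an interaction of -0.38 ± 0.36 on the log2 scale (SE; adjusted p = 0.689), and as it is deleted in another cell type its level does not check the genotype. Retained-intron transcripts took 5.13% to 6.59% of counts in unstimulated libraries, 5.99% and 7.63% in stimulated Ctsl+/+ and 7.94% and 8.55% in stimulated CtslΔTEC libraries. The Y-linked gene Ddx3y was at 0.0580, 0.0350, 161 and 0.0555 CPM in unstimulated Ctsl+/+ mice 1 to 4 and at 125 to 206 CPM in all 5 unstimulated CtslΔTEC mice, while each stimulated group had 1 mouse with and 1 without it. The part of sex, RNA quality and depth in the results was not tested beyond the fits given here: 674 genes were called with Y-linked expression as a covariate, 572 with the retained-intron share, and 661 after thinning to the smallest total. The names of the unstimulated files carry 2 dates and those of the stimulated files 1 other. Effects of date and of stimulation therefore cannot be told apart. The interaction compares genotypes within each state, but a genotype difference that varies with date cannot be told apart from it either. With the unstimulated libraries of the second date alone 743 genes were called.

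Genes that ended relatively lower in stimulated CtslΔTEC cells outnumbered those that ended higher. Of the 856 genes, 695 had a negative and 161 a positive interaction (4.88% and 1.13% of all genes tested), and 832 were protein-coding. The median interaction of all 14241 genes was -0.06 on the log2 scale, from a median genotype difference of 0.01 in unstimulated and -0.05 in stimulated cells. The share of negative calls was 81.2% with edgeR and 70.6% with DESeq2, which called 1050 genes. Each stimulated group had 2 mice, and 188 of the 856 genes (1.32% of all genes tested) stayed under the threshold, with the same sign, in each of the 4 fits that left out 1 stimulated mouse. Leaving out 1 stimulated mouse gave 334 genes without CtslΔTEC mouse 6, 615 without CtslΔTEC mouse 7, 340 without Ctsl+/+ mouse 5 and 1227 without Ctsl+/+ mouse 6. In bulk samples, fewer cells expressing a gene and less RNA per cell cannot be told apart.

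For most of these genes the genotypes differed past the threshold only after stimulation. At the same threshold of 0.1 in both states, the difference appeared with stimulation for 580 genes (67.8%), of which 519 had a negative interaction. For 148 genes (17.3%) a difference present in unstimulated cells no longer passed after stimulation, 71 with a positive and 77 with a negative interaction. The difference grew in size without changing sign for 56 genes, shrank for 8 and reversed sign for 31, and for 33 it passed in neither state. For comparison, 12.1% of all genes tested differed between the genotypes in unstimulated cells and 13.3% in stimulated cells. Because 9 mice entered the first of these comparisons and 4 the second, a difference that misses the threshold in one state is not thereby shown to be absent there, and the interaction itself is the test of the change.

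**Figure D1:**
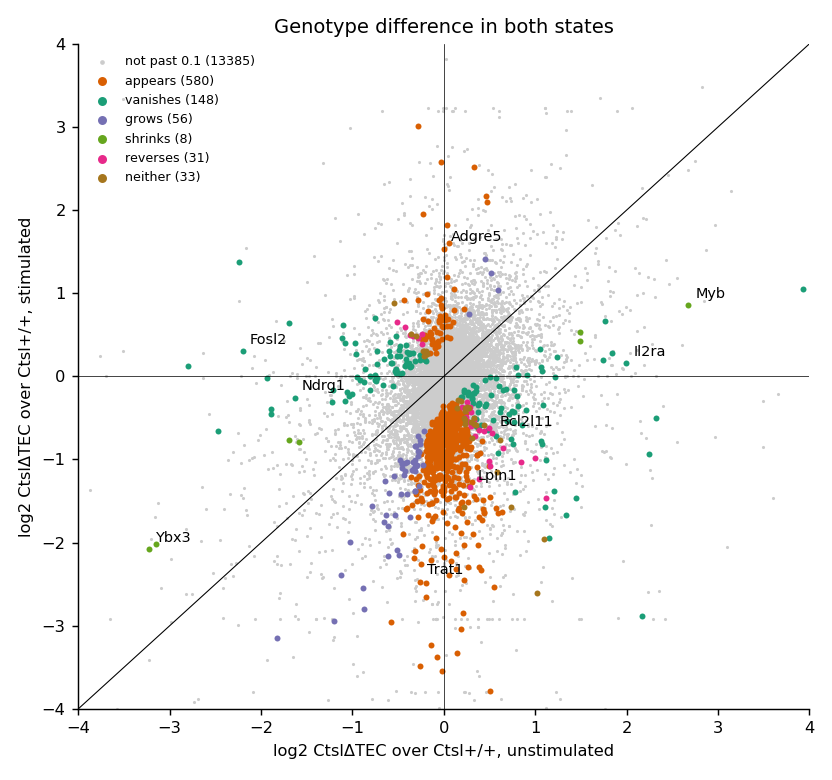
Genotype difference of each of the 14241 genes tested, as log2 CtslΔTEC over Ctsl+/+ in unstimulated (x axis) and stimulated cells (y axis), coloured by class among the 856 genes with an interaction past an adjusted p of 0.1. The diagonal marks equal differences and 147 genes lie outside the axes. The 580 appearing genes form a vertical band near 0 on the x axis, mostly below 0 on the y axis, and the 148 vanishing genes a horizontal band.

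The same genes can be read by their responses to stimulation, of which the interaction is the difference. Of the 695 genes with a negative interaction, 493 (70.9%) had fallen with stimulation in both genotypes, compared to 31.9% of all genes tested, with a median log2 response of -1.46 in Ctsl+/+ and -2.40 in CtslΔTEC cells. A further 96 fell in CtslΔTEC cells alone at this threshold, 24 rose in Ctsl+/+ and fell in CtslΔTEC cells, 38 rose in Ctsl+/+ cells alone and 44 rose in both with a smaller rise in CtslΔTEC cells. Of the 161 genes with a positive interaction, 81 (50.3%) had risen in both genotypes, compared to 28.0% of all genes tested, with medians of 1.64 in Ctsl+/+ and 2.43 in CtslΔTEC cells. The size of the response was larger in CtslΔTEC cells for 719 of the 856 genes (84%). For genes called with a response of the same sign in both genotypes that order follows from the sign of the interaction, and nothing is read from it. Among all genes tested, with no selection on the interaction, the response was larger in size in CtslΔTEC cells for 61%, for 71.9% of the 4548 lower and for 57.2% of the 3988 higher after stimulation in both genotypes. All genes come from the same mice, so they are not replicates and these shares are descriptive only. The median interaction of -0.06 over all genes by itself enlarges falls and shrinks rises in CtslΔTEC cells. The 2 responses share no mouse, but each includes the unstimulated mice that also define the resting difference, so the 2 readings are not independent.

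**Figure D2:**
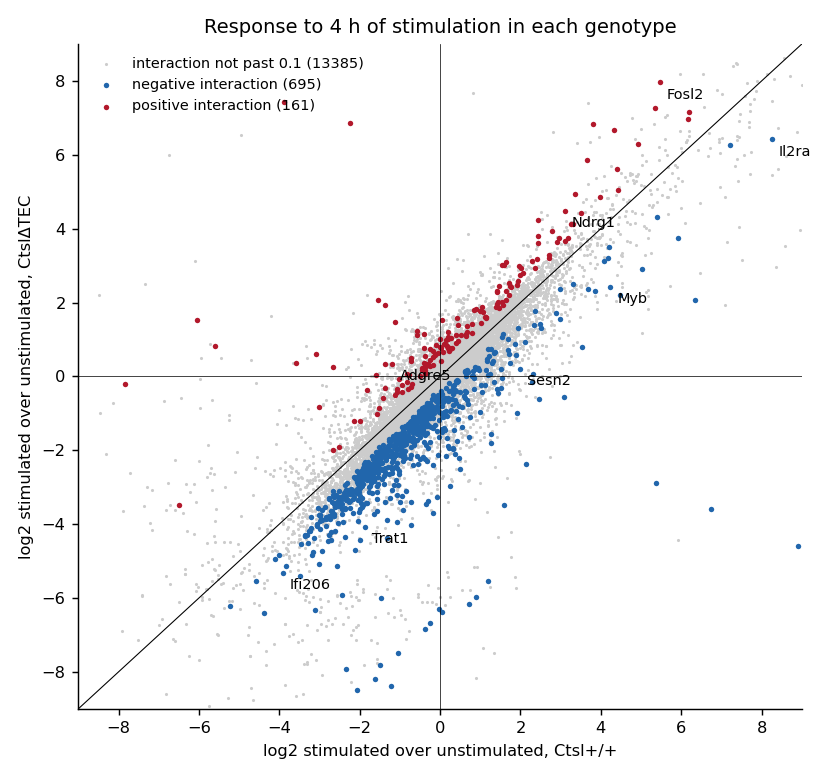
Response to 4 h of stimulation of each gene, as log2 stimulated over unstimulated in Ctsl+/+ (x axis) and CtslΔTEC cells (y axis). Blue points are the 695 genes with a negative and red points the 161 with a positive interaction, the diagonal marks equal responses, and 32 genes lie outside the axes. Blue points lie below and red points above the diagonal because of how they were chosen, and most blue points lie in the lower left corner, where both responses were negative.

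Genes whose resting difference no longer passed the threshold after stimulation included a transcription factor, a stress gene and a cytokine receptor of activated T cells. Fosl2, an AP-1 family transcription factor (GRCm38 chr5:32135801-32157842), was at 12.6, 6.73, 5.72 and 8.77 CPM in the 4 unstimulated Ctsl+/+ mice and at 2.60, 1.78, 1.86, 1.35 and 1.62 CPM in the 5 unstimulated CtslΔTEC mice, and at 331 and 419.7 against 493 and 433 CPM after stimulation. All unstimulated CtslΔTEC values lay below all Ctsl+/+ values, whereas after stimulation they lay above them. The log2 difference went from -2.20 ± 0.22 to 0.30 ± 0.27 (SE), an interaction of 2.50 ± 0.35 (adjusted p = 0.00377). Ndrg1, a stress-induced gene also known from anergic T cells (chr15:66929318-66969640), was at 58.2, 65.4, 66.8 and 60.7 CPM in Ctsl+/+ and 17.5, 18.2, 24.0, 21.3 and 20.4 CPM in CtslΔTEC cells at rest, and at 528 and 551 against 443 and 462 CPM when stimulated. CtslΔTEC values were lower in both states, by 3.10-fold at rest and 1.19-fold after stimulation, and the interaction was 1.38 ± 0.15 (adjusted p = 0.000856). Il2ra, the alpha chain of the IL-2 receptor and a standard marker of activation (chr2:11642807-11693193), was the reverse case, at 2.61, 2.28, 2.01 and 2.28 CPM in Ctsl+/+ and 6.52, 12.9, 8.82, 7.73 and 9.95 CPM in CtslΔTEC cells at rest. After stimulation it reached 671 and 731 CPM in Ctsl+/+ and 804 and 764 CPM in CtslΔTEC cells. Resting CtslΔTEC cells thus held 3.99 times the Ctsl+/+ level, against 1.12 times after stimulation, with an interaction of -1.83 ± 0.27 (adjusted p = 0.00389).

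Pdk1, whose product restrains the entry of pyruvate into the mitochondrial cycle, ran from a higher resting level to a common low level. It was at 279, 299, 247 and 238 CPM in Ctsl+/+ and 505, 674, 607, 649 and 651 CPM in CtslΔTEC cells, and at 41.7 and 33.2 against 33.6 and 40.2 CPM after stimulation, where the groups overlapped. The interaction was -1.22 ± 0.19 (adjusted p = 0.00489). Rnf144a, a ubiquitin ligase, was at 27.0 to 39.1 CPM in Ctsl+/+ and 16.3 to 20.5 CPM in CtslΔTEC cells at rest and at 19.9 and 22.9 against 28.2 and 23.8 CPM when stimulated. Its response was -0.72 in Ctsl+/+ and 0.51 in CtslΔTEC cells, opposite in sign, for an interaction of 1.23 ± 0.21 (adjusted p = 0.00759). Neurl3, another ubiquitin ligase, was at 14.7 to 21.4 and 31.8 to 46.7 CPM at rest and at 64.2 and 29.1 against 28.3 and 23.8 CPM after stimulation (interaction -1.90 ± 0.35, adjusted p = 0.0134). The stimulated Ctsl+/+ mice differed from each other for this gene by more than mouse 6 differed from the CtslΔTEC mice.

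A resting difference narrowed but remained past the threshold for 8 genes. Myb, a transcription factor of progenitors and immature thymocytes (chr10:21124935-21160984), was at 20.6, 13.4, 13.5 and 16.2 CPM in unstimulated Ctsl+/+ and 94.9, 105, 101, 110.2 and 97.9 CPM in CtslΔTEC cells, and rose to 309.9 and 289 CPM in Ctsl+/+ and 566 and 519.9 CPM in CtslΔTEC cells. The groups did not overlap in either state, and the CtslΔTEC level was 6.39 times that of Ctsl+/+ at rest and 1.81 times after stimulation (interaction -1.82 ± 0.20, adjusted p = 0.000641). Gfi1, a zinc finger repressor of lymphocyte development, went from 9.52 to 12.2 and 28.2 to 31.3 CPM to 359 and 532 in Ctsl+/+ and 604 and 592 CPM in CtslΔTEC cells (interaction -1.07 ± 0.18, adjusted p = 0.00769). Ybx3, a cold-shock domain protein that binds nucleic acids, showed the opposite sign, at 24.9 to 34.2 CPM in Ctsl+/+ and 2.46 to 3.92 CPM in CtslΔTEC cells at rest and 221 and 178 against 51.4 and 42.9 CPM after stimulation. It remained 4.23-fold lower in stimulated CtslΔTEC cells, from 9.38-fold at rest, with an interaction of 1.15 ± 0.22 (adjusted p = 0.0141). Ccr8, a chemokine receptor of activated T cells, was at 2.61, 7.47, 5.17 and 9.72 CPM in Ctsl+/+ and 0.152, 0.146, 0.149, 0.0300 and 0.125 CPM in CtslΔTEC cells at rest, and at 86.6 and 88.7 against 14.0 and 14.4 CPM after stimulation. Both genotypes thus induced it, to levels that stayed 6.17-fold apart (interaction 3.02 ± 0.61, adjusted p = 0.0172), and the resting CtslΔTEC values rest on few counts. Ptgfrn, a membrane partner of tetraspanins, was at 43.1 to 58.0 and 13.8 to 16.9 CPM at rest and 37.6 and 38.4 against 24.5 and 20.4 CPM after stimulation (interaction 0.93 ± 0.18, adjusted p = 0.0142).

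**Figure D3:**
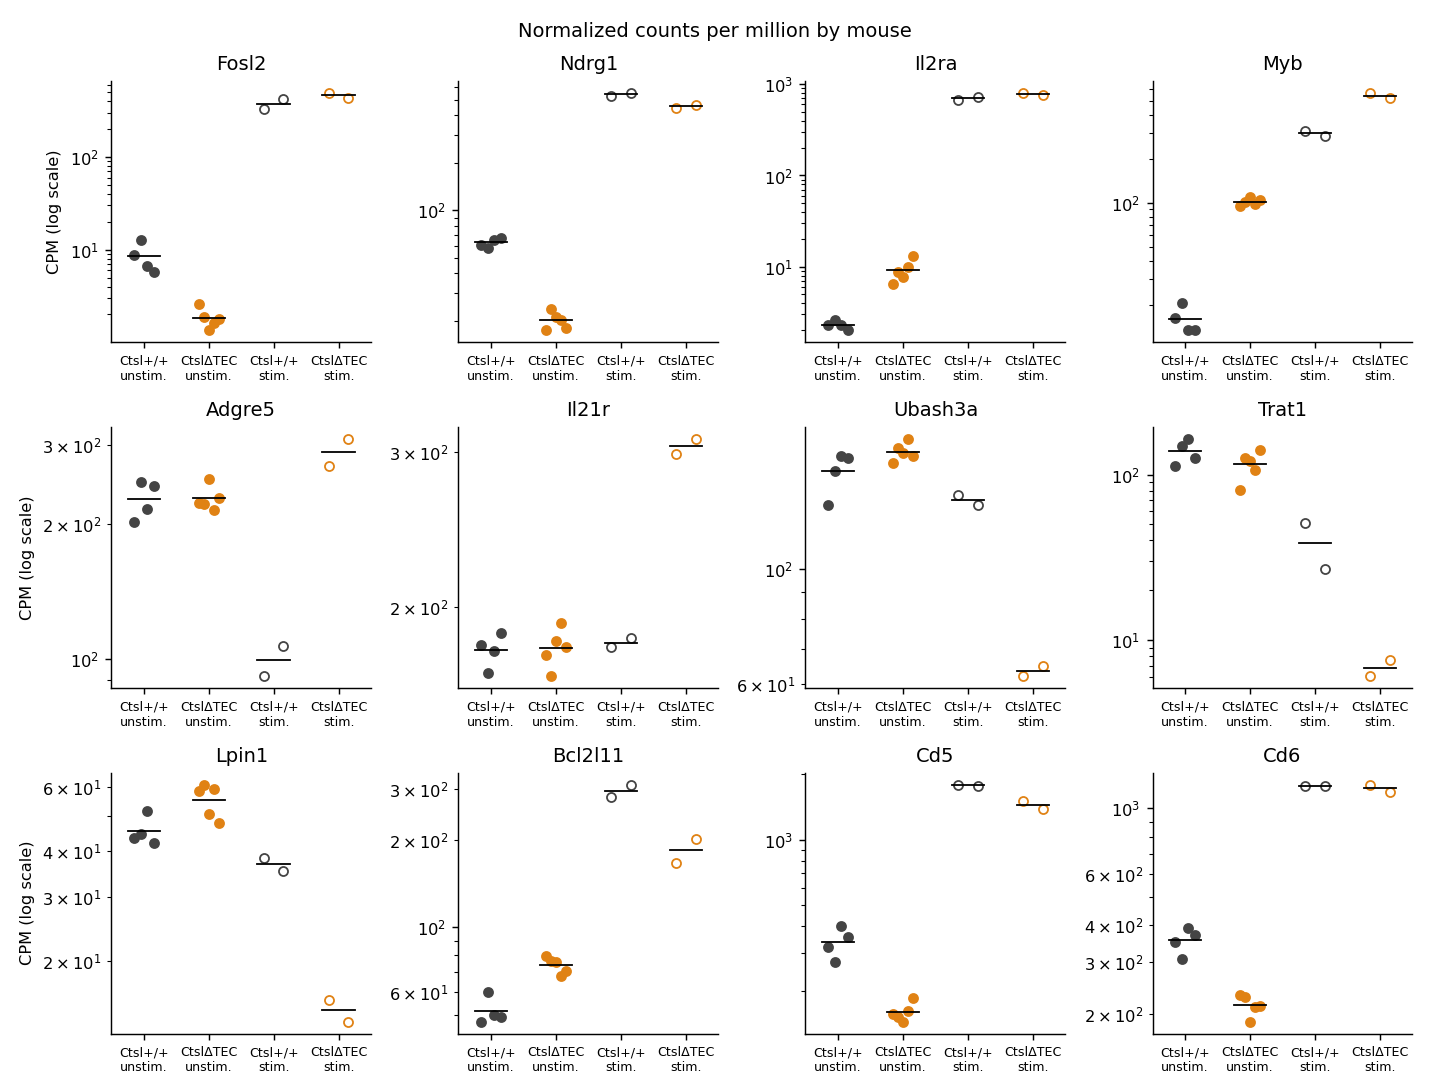
CPM of 12 genes in each of the 13 mice on log axes whose range differs between panels. Filled points are unstimulated and open points stimulated mice, grey is Ctsl+/+ and orange CtslΔTEC, and bars are group means. Fosl2, Ndrg1, Il2ra and Cd6 differ at rest and less after stimulation, Adgre5, Il21r, Ubash3a and Trat1 only after it, and Lpin1 and Bcl2l11 change order.

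Differences that appeared with stimulation included receptors and an adaptor of the TCR. Adgre5, which encodes the adhesion receptor CD97 (chr8:83723251-83741326), was at 248, 216, 243 and 202 CPM in unstimulated Ctsl+/+ and 222, 229, 221, 252 and 215 CPM in CtslΔTEC cells, with overlapping groups. After stimulation it was at 91.7 and 107 CPM in Ctsl+/+ and 269 and 309 CPM in CtslΔTEC cells. It fell in Ctsl+/+ cells by 2.28-fold and rose 1.27-fold in CtslΔTEC cells (interaction 1.53 ± 0.15, adjusted p = 0.000641). Il21r, the IL-21 receptor, was at 169 to 187 and 167 to 192 CPM at rest, stayed at 180.3 and 184 CPM in stimulated Ctsl+/+ and was at 299 and 311 CPM in stimulated CtslΔTEC cells (interaction 0.73 ± 0.11, adjusted p = 0.00389). Tet2, an enzyme that oxidises 5-methylcytosine, was at 55.3 to 69.5 and 62.3 to 72.9 CPM at rest, and at 63.3 and 107 against 200.1 and 193 CPM after stimulation (interaction 1.17 ± 0.22, adjusted p = 0.0136). Trim24, a chromatin-binding ubiquitin ligase, had an interaction of 0.97 ± 0.14 (adjusted p = 0.00382), and Hspa4l, an Hsp110 family chaperone, of 1.18 ± 0.23 (adjusted p = 0.015). For both, each stimulated CtslΔTEC mouse lay above both stimulated Ctsl+/+ mice.

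On the negative side, Ubash3a, a suppressor of TCR signalling (chr17:31207873-31246892), was at 154, 166, 164 and 133 CPM in resting Ctsl+/+ and 159.9, 165, 172, 167 and 178 CPM in resting CtslΔTEC cells. It was at 139 and 133 CPM in stimulated Ctsl+/+ and at 62.0 and 64.9 CPM in stimulated CtslΔTEC cells. The resting groups overlapped and the stimulated ones were 2.14-fold apart (interaction -1.22 ± 0.13, adjusted p = 0.000641). Trat1, a transmembrane adaptor that associates with the TCR complex (chr16:48730774-48772021), had the largest negative interaction among genes that kept their call without each stimulated mouse and had a mean of at least 3 log2 CPM. It was at 149.6, 165, 126 and 112 CPM in Ctsl+/+ and 81.0, 142, 125, 121 and 107 CPM in CtslΔTEC cells at rest, and at 50.8 and 26.7 against 6.05 and 7.53 CPM after stimulation. The groups overlapped at rest and not after stimulation. Both genotypes fell, CtslΔTEC cells by 16.8-fold and Ctsl+/+ cells by 3.65-fold (interaction -2.21 ± 0.37, adjusted p = 0.00628). Arhgap18, a GTPase-activating protein, was at 21.3 to 24.3 and 18.2 to 21 CPM at rest and 12.4 and 8.81 against 2.89 and 2.21 CPM after stimulation (interaction -1.80 ± 0.22, adjusted p = 0.00156). Il16, which encodes the precursor of the chemoattractant IL-16, was at 434 to 479 and 443 to 494 CPM and then 179 and 131 against 54.3 and 70.3 CPM (interaction -1.37 ± 0.17, adjusted p = 0.00181). Sgsh, a lysosomal sulfatase, had an interaction of -1.72 ± 0.27 (adjusted p = 0.00444).

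The negative difference grew for Fam53b, Cdk6, Gsn and Dap. Cdk6, a cyclin D-dependent kinase of early G1, was at 57.4, 57.9, 63.3 and 48.5 CPM in Ctsl+/+ and 50.8, 45.5, 41.4, 49.6 and 41.4 CPM in CtslΔTEC cells at rest, with overlap, and at 89.9 and 88.2 against 34.2 and 34.4 CPM after stimulation. It rose in Ctsl+/+ and fell in CtslΔTEC cells, with log2 responses of 0.65 and -0.41 (interaction -1.06 ± 0.16, adjusted p = 0.00389). Gsn, which encodes the actin-severing protein gelsolin, went from a difference of -0.63 to -1.67 (interaction -1.05 ± 0.17, adjusted p = 0.00487). The corresponding differences were -0.27 and -1.32 for Fam53b (interaction adjusted p = 0.00377) and -0.37 and -1.69 for Dap, a death-associated protein (adjusted p = 0.00633).

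For 31 genes the genotypes were in opposite order in the 2 states, 22 of them higher in resting and lower in stimulated CtslΔTEC cells and 9 the other way. The groups did not overlap in either state for 23 of the 31 (7.85% of all genes tested, regardless of direction), and as these genes were chosen for a difference in both states nothing is read from that count. Lpin1, a phosphatidate phosphatase of lipid synthesis (chr12:16535669-16610966), was at 44.5, 51.4, 42.1 and 43.3 CPM in Ctsl+/+ and 58.3, 47.8, 60.9, 50.7 and 59.1 CPM in CtslΔTEC cells at rest, with some overlap. After stimulation it was at 38.2 and 35.3 against 15.6 and 13.6 CPM. The difference went from 0.29 ± 0.09 to -1.33 ± 0.15 (interaction -1.62 ± 0.17, adjusted p = 0.000641). Bcl2l11, which encodes the pro-apoptotic protein BIM (chr2:128126038-128162547), was at 59.8, 50, 49.0 and 47.3 CPM in Ctsl+/+ and 79.9, 70.5, 76.6, 76.0 and 68.1 CPM in CtslΔTEC cells at rest. It was at 279.8 and 309.9 CPM in stimulated Ctsl+/+ and 166 and 202 CPM in stimulated CtslΔTEC cells. CtslΔTEC cells were thus higher at rest and lower after stimulation in every mouse, by 0.53 and -0.68 (interaction -1.21 ± 0.16, adjusted p = 0.00236). Spata13, an exchange factor for small GTPases, went from 0.34 to -0.71 (interaction adjusted p = 0.00111) and Letm2 from 0.39 to -1.24 (adjusted p = 0.00178). In the other direction, Nab1, a corepressor of EGR transcription factors, was at 149.6, 178, 165 and 158 CPM in Ctsl+/+ and 97.2, 117, 124, 115 and 117 CPM in CtslΔTEC cells, and then at 116 and 129.8 against 219.9 and 167 CPM (interaction 1.17 ± 0.17, adjusted p = 0.00389). Chst10, a sulfotransferase, went from -0.42 to 0.59 (interaction adjusted p = 0.00389).

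Sterol synthesis genes were called in 39.3% of tested members. For this and the following lists, 6.01% of all genes tested were called, 81.2% of those calls were negative, and 8174 of 14241 genes had a value below 0. Cells make cholesterol from acetyl-CoA through mevalonate, and SREBP2 induces these enzymes when sterols are scarce, as in growing T cells. Of 28 tested members of the sterol synthesis and SREBP2 list, 11 had a negative and 0 a positive interaction at adjusted p under 0.1, 26 had a value below 0, and the median interaction was -0.73, beside -0.06 over all genes. The median genotype difference of these members was -0.09 at rest and -0.77 after stimulation, when 21 of 28 were lower in CtslΔTEC cells, compared to 10.6% of all genes tested, and 0 higher. The median response to stimulation was 1.74 in Ctsl+/+ and 1.24 in CtslΔTEC cells. The median level of the members relative to unstimulated Ctsl+/+ cells was 2.01 and 1.54 in the 2 stimulated Ctsl+/+ mice and 0.98 and 1.13 in the 2 stimulated CtslΔTEC mice (log2). The Ctsl+/+ mice 5 and 6 therefore differed by about as much as mouse 6 did from the CtslΔTEC mice, and leaving out 1 stimulated mouse left between 1 and 18 members called, namely 2 without Ctsl+/+ mouse 5, 18 without Ctsl+/+ mouse 6, 1 without CtslΔTEC mouse 6 and 6 without CtslΔTEC mouse 7, with medians from -1.05 to -0.43. DESeq2 called 15 and limma-voom 2 of the 28. For the lists that follow, leave-out counts are the members called without Ctsl+/+ mouse 5, Ctsl+/+ mouse 6, CtslΔTEC mouse 6 and CtslΔTEC mouse 7, in that order.

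Dhcr7, which makes the last step to cholesterol, was at 47.3, 53.1, 56.1 and 47.5 CPM in Ctsl+/+ and 39.7, 43.2, 41.9, 44.3 and 41.0 CPM in CtslΔTEC cells at rest, and at 48.5 and 33.6 against 13.5 and 19.2 CPM after stimulation. Its difference went from -0.28 to -1.30 (interaction -1.02 ± 0.21, adjusted p = 0.0174, and 0.106 without CtslΔTEC mouse 6), and the groups did not overlap in either state. Insig1, the sterol sensor that retains SREBP in the endoplasmic reticulum, was at 13.6 to 16.6 and 17.2 to 20.1 CPM at rest and at 360.0 and 195 against 167 and 169 CPM after stimulation (interaction -0.98 ± 0.24, adjusted p = 0.0388). Ctsl+/+ mouse 5 was the highest for Insig1, and the adjusted p was 0.161 without it, 0.155 and 0.105 without CtslΔTEC mouse 6 or 7 and 0.000643 without Ctsl+/+ mouse 6. Pmvk, a mevalonate pathway kinase, was at 30.2 and 15.5 against 9.84 and 9.17 CPM after stimulation (interaction -1.19 ± 0.30, adjusted p = 0.0478, and 0.247 without Ctsl+/+ mouse 5). Scd2, a desaturase that introduces double bonds into fatty acids, kept its call without any 1 stimulated mouse. It was at 244, 226, 256 and 173 CPM in Ctsl+/+ and 264, 387, 277, 299.8 and 363 CPM in CtslΔTEC cells at rest, and at 62.3 and 62.5 against 30.9 and 28.1 CPM after stimulation (interaction -1.58 ± 0.24, adjusted p = 0.00389). The other members called were Fdps, Mvd, Mvk, Lss, Sc5d, Nsdhl and Msmo1, with interactions of -0.95, -1.20, -1.21, -0.61, -0.996, -0.86 and -0.80.

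**Figure D4:**
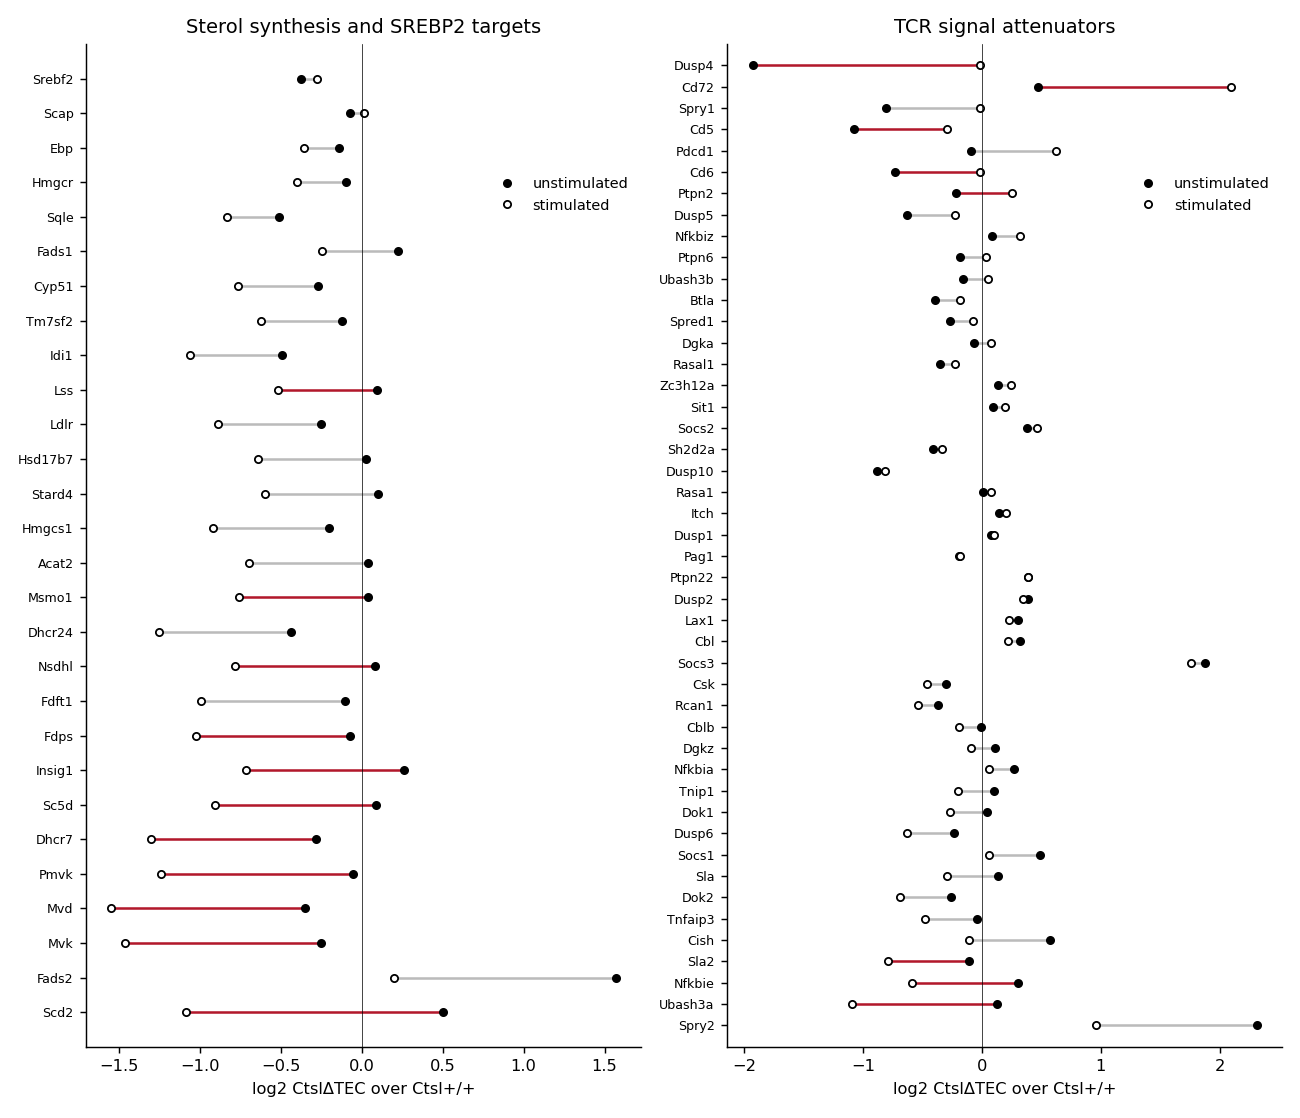
Genotype difference (log2 CtslΔTEC over Ctsl+/+) of the 28 tested sterol genes (left) and the 46 tested TCR signal attenuators (right), at rest (filled) and after stimulation (open), ordered by interaction. Red lines mark an interaction past an adjusted p of 0.1: 11 sterol genes, for which the open point lies left of the filled one, and 8 attenuators, 5 with the open point to the right and 3 to the left.

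The promoters of the sterol genes are shown because 11 of the 28 were called in the same direction. SREBP2 acts with NF-Y, which binds CCAAT. In the RefSeq windows from 250 bases before to 50 after a start site (GRCm38.p6, 10443 of the tested genes matched by symbol), the letters CCAAT stood on either strand in 16 of 19 sterol genes with a window and in all 9 called ones, compared to 43.2% of all tested genes with a window. The sterol element letters TCACNCCAC stood in 1 of 19 (Hmgcs1), beside 1.27% of all. A gene was counted if any of its windows matched, so genes with more windows had more chances to match. Dhcr7 had 3 windows and Insig1 had 1, and the window shown was picked because it held a match. Such matches describe the sequence only. Each window below is read 5′ to 3′ on the strand of its gene, with the CCAAT letters, or their complement, in capitals (Dhcr7 at chr7:143829964-143830263, plus strand; Insig1 at chr5:28071162-28071461, plus strand).
Dhcr7: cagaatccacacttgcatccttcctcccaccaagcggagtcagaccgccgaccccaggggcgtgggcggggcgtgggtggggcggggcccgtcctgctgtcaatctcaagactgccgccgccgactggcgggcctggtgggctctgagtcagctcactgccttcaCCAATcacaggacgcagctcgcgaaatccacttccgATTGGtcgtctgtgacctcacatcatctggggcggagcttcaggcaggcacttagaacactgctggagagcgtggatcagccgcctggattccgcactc
Insig1: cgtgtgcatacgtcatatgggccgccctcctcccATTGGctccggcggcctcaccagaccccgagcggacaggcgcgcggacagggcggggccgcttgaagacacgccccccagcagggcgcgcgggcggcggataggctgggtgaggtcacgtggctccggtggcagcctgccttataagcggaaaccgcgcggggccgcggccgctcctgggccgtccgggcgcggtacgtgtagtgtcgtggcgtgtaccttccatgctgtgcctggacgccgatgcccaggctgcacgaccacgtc

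The genes of amino acid supply and the ATF4 response, through which cells under amino acid or mitochondrial stress raise serine and asparagine synthesis, were called in 24.2% of tested members. Of 33 tested members, 7 had a negative and 1 a positive interaction, 28 had a value below 0, and the median was -0.53. The median level relative to unstimulated Ctsl+/+ cells was 2.11 and 1.34 in the stimulated Ctsl+/+ mice and 1.16 and 0.72 in the stimulated CtslΔTEC mice, and 15 of 33 members were lower in stimulated CtslΔTEC cells, compared to 10.6% of all genes tested, while 0 were higher. Phgdh, the first enzyme of serine synthesis (chr3:98313170-98339990), was at 53.2, 51.7, 61.4 and 56.7 CPM in Ctsl+/+ and 73.5, 67.8, 73.5, 68.6 and 72.9 CPM in CtslΔTEC cells at rest, and at 228 and 94.6 against 62.6 and 52.9 CPM after stimulation. CtslΔTEC values lay above those of Ctsl+/+ mice at rest and below them after stimulation. It rose in Ctsl+/+ cells by 1.52 on the log2 scale, whereas the CtslΔTEC response of -0.30 did not pass the threshold (interaction -1.83 ± 0.32, adjusted p = 0.00779). Sesn2, a stress-induced leucine sensor, was at 5.08 to 5.50 and 3.46 to 4.68 CPM at rest and at 27.3 and 14.9 against 5.06 and 4.62 CPM (interaction -1.79 ± 0.29, adjusted p = 0.00558). Eif4ebp1, a repressor of cap-dependent translation, was at 16.4 and 10.1 against 5.24 and 4.30 CPM after stimulation (interaction -1.59 ± 0.32, adjusted p = 0.0173), and Gpt2, a mitochondrial alanine aminotransferase, at 8.21 and 4.58 against 1.81 and 0.759 CPM (interaction -2.73 ± 0.53, adjusted p = 0.015). These 4 genes kept their calls without each stimulated mouse, and in each of them Ctsl+/+ mouse 5 was higher than mouse 6. The median of the list was -0.19 without Ctsl+/+ mouse 5 and -0.75 without mouse 6, and the leave-out counts were 4, 13, 6 and 4.

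The letters CCAAT, searched above in the sterol genes, also stood in 19 of 28 of these genes with a window. This was 67.9%, compared to 43.2% of all tested genes, and 5 of 7 called ones had them. The ATF4-type letters TGATGNAA stood in 8 of the 28, compared to 3.10% of all tested genes. They stood in 1 of 7 called ones, Got1, an aspartate aminotransferase. Its window is shown with the match in capitals (chr19:43524556-43524855, minus strand).
Got1: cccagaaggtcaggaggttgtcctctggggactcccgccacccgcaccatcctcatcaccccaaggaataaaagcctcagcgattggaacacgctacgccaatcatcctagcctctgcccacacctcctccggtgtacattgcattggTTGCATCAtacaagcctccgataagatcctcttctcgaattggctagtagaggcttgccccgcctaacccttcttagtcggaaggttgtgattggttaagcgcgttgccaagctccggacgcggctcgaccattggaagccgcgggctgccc

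Lipid enzymes were called in 26.5% and glycolysis and hypoxia genes in 12.5% of tested members. Of 34 fatty acid and lipid enzymes, 9 had a negative and 0 a positive interaction, 6 of the 9 kept the call without each stimulated mouse, and the median was -0.43 (-0.28 without Ctsl+/+ mouse 5), with leave-out counts of 7, 14, 8 and 7. The called members were Lpin1 and Scd2, described above, and Hadh, Elovl6, Lipa, Acaa1a, Acly, Acaa2 and Acadm, so enzymes of both synthesis and β-oxidation were among them. Hadh, a dehydrogenase of β-oxidation, was at 43.2 to 51.1 and 39.6 to 42.4 CPM at rest and at 8.6 and 5.59 against 1.99 and 2.21 CPM after stimulation (interaction -1.51 ± 0.22, adjusted p = 0.00389). Elovl6, which elongates long-chain fatty acids, was at 17.2 and 12.1 against 6.41 and 5.63 CPM after stimulation (interaction -1.27 ± 0.22, adjusted p = 0.00864). Of 32 glycolysis and hypoxia genes, 4 had a negative and 0 a positive interaction, namely Pdk1, Eno1, Eno3 and Ldhb, with leave-out counts of 4, 7, 3 and 5. The median interaction of this list was -0.15, and 20 members had a value below 0. Its median genotype difference was already -0.22 at rest and -0.42 after stimulation. At rest 13 members were lower and 3 higher in CtslΔTEC cells, and after stimulation 15 and 0. Over all genes tested, 12.1% and 13.3% differed in these states. Eno1, the main enolase, was at 247 and 176 against 101 and 101 CPM after stimulation, from 787 to 889 and 626 to 710.4 CPM at rest (interaction -0.78 ± 0.16, adjusted p = 0.0176), and Eno3 had -1.03 ± 0.20 (adjusted p = 0.014). Ldhb rested on values of at most 1.01 CPM in stimulated CtslΔTEC cells and missed the threshold in 3 of the 4 fits without 1 stimulated mouse.

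**Figure D5:**
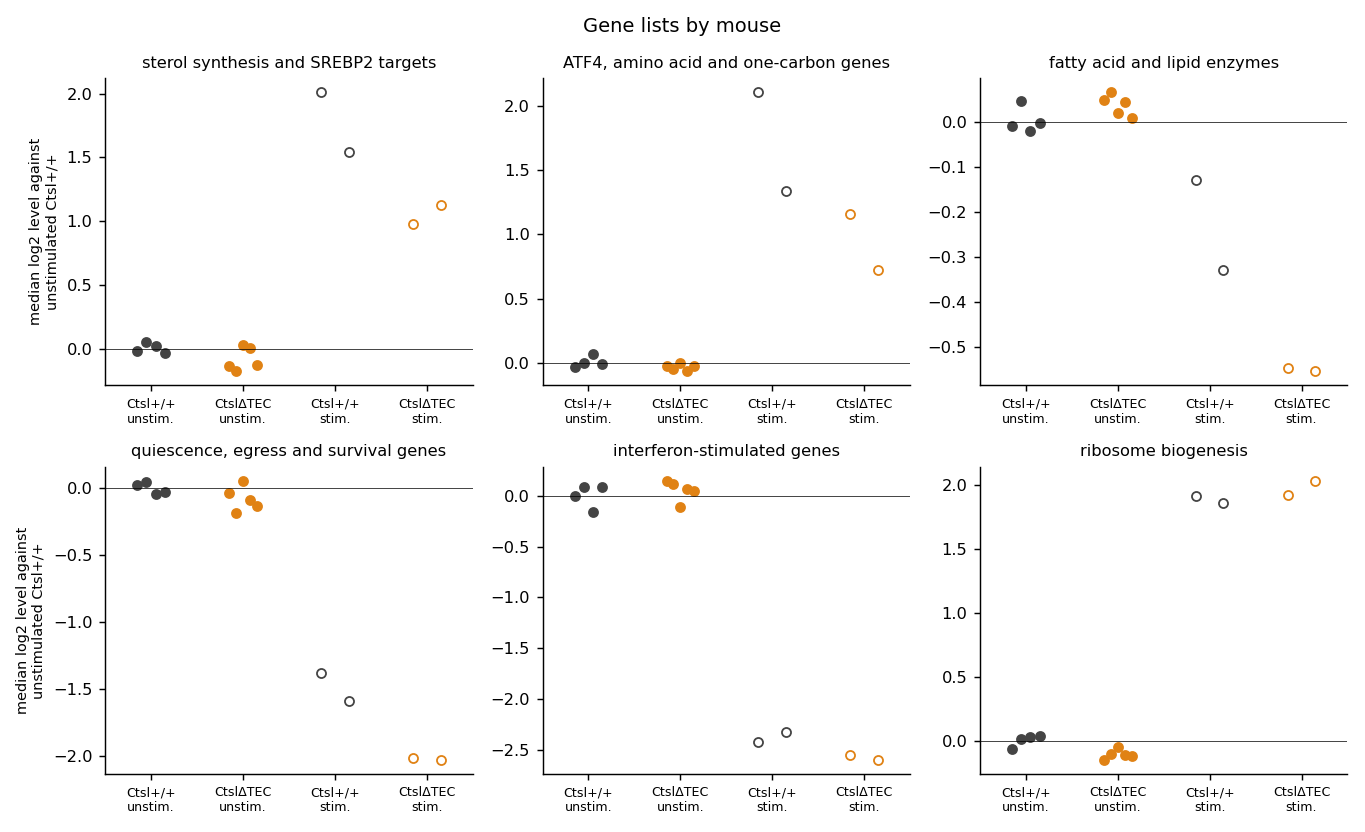
Median over the tested members of 6 gene lists of the log2 level (CPM plus 0.5) relative to unstimulated Ctsl+/+ cells, 1 point per mouse, with y axes that differ between panels. Filled points are unstimulated, open points stimulated, grey Ctsl+/+ and orange CtslΔTEC. In the sterol, ATF4, lipid and quiescence panels both stimulated CtslΔTEC mice lie below both stimulated Ctsl+/+ mice, and in the sterol and ATF4 panels the 2 stimulated Ctsl+/+ mice lie apart.

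Of 58 interferon-stimulated genes, which maturing thymocytes express without infection, 51 were lower and 1 higher after stimulation in both genotypes at an adjusted p under 0.1, compared to 31.9% and 28.0% of all genes tested, and the median response was -2.72 in Ctsl+/+ and -3.12 in CtslΔTEC cells. Of the 58 tested members, 9 (15.5%) had a negative and 0 a positive interaction, 48 had a value below 0, and the median was -0.34. The leave-out counts were 4, 9, 5 and 6, and limma-voom called 3. Ifi206, an IFI200 family gene, went from 144, 141, 118 and 145 CPM in Ctsl+/+ and 129.6, 119, 126, 136 and 115 CPM in CtslΔTEC cells to 9.53 and 8.74 and to 2.80 and 3.42 CPM (interaction -1.40 ± 0.19, adjusted p = 0.00297). Gbp5, a guanylate-binding protein, was at 4.26, 5.15, 3.98 and 3.80 CPM in Ctsl+/+ and 8.90, 9.23, 8.08, 7.64 and 8.98 CPM in CtslΔTEC cells at rest. After stimulation the order was reversed, at 4.50 and 2.72 against 1.53 and 1.90 CPM (interaction -1.98 ± 0.31, adjusted p = 0.00487). Ifi47 and Igtp, immunity-related GTPases, had interactions of -0.96 ± 0.18 (adjusted p = 0.0137) and -0.74 ± 0.15 (adjusted p = 0.0195). The other 5 called members were Ifi209, Gbp2, Gbp7, Gbp8 and Dtx3l, with interactions from -0.98 to -0.54. Reads may be shared among the near-identical members of the IFI200 and GBP families. The interferon-response letters GAAANNGAA stood in 29 of 42 list members with a window, compared to 8.88% of all tested genes, and in 5 of 8 called ones. The windows of Ifi206 (chr1:173491269-173491568, minus strand) and Gbp5 (chr3:142496684-142496983, plus strand) are shown with the match in capitals.
Ifi206: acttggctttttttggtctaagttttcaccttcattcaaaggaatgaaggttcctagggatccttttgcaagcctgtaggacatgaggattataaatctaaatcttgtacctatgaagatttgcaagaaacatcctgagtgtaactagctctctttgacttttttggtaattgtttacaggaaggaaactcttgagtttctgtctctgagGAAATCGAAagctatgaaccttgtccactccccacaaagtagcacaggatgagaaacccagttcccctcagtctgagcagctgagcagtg
Gbp5: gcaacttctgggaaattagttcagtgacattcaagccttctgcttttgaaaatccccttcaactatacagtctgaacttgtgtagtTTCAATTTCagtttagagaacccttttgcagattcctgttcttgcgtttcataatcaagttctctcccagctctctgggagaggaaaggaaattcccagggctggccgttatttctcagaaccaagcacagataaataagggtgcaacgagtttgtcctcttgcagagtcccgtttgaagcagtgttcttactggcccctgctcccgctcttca

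Genes of the quiescent, recirculating state were called in 19.5% of tested members, compared to 6.01% of all genes. Of 41 tested members, 8 had a negative and 0 a positive interaction, with leave-out counts of 3, 11, 3 and 5 and 5 calls by limma-voom. The median was -0.17, and -0.34 without Ctsl+/+ mouse 6 and -0.28 without CtslΔTEC mouse 7. Of the 8, 5 were Gimap genes, GTPases needed for survival of resting T cells. Slfn2, which maintains quiescence, was at 431 to 505 and 445 to 505 CPM at rest and at 428 and 262 against 153 and 192 CPM after stimulation (interaction -1.02 ± 0.21, adjusted p = 0.0202, and 0.132 without CtslΔTEC mouse 6). Gimap5, whose loss is known to deplete T cells, was at 70.8 to 82.2 in Ctsl+/+ and 89.2 to 104 CPM in CtslΔTEC cells at rest and at 79.3 and 71.5 against 63.3 and 53.8 CPM after stimulation (interaction -0.65 ± 0.14, adjusted p = 0.0203). Gimap1 and Gimap4 had interactions of -0.71 ± 0.17 (adjusted p = 0.0362) and -0.52 ± 0.13 (adjusted p = 0.039), both lost without 2 of the 4 stimulated mice in turn. Further called members included Gimap7, Gimap8 and Tcf7, with interactions of -0.83, -0.43 and -0.75. Among 29 genes of the double-positive (DP) stage, whose median log2 genotype difference at rest was 0.42, 5 had a negative and 0 a positive interaction and the median difference after stimulation was -0.003, with leave-out counts of 2, 5, 3 and 3 and 2 calls by limma-voom. After stimulation 5 DP members were higher and 3 lower in CtslΔTEC cells at adjusted p under 0.1, compared to 13.3% of all genes tested in either direction. Relative to unstimulated Ctsl+/+ cells, their median level was -1.16 and -0.94 in the stimulated Ctsl+/+ mice (log2). In the stimulated CtslΔTEC mice it was higher, at -0.72 and -0.71. Dntt, the terminal transferase of immature thymocytes, was at 14.3 to 27.0 CPM in Ctsl+/+ and 63.9 to 87.8 CPM in CtslΔTEC cells at rest and at 4.90 and 2.60 against 5.33 and 3.10 CPM after stimulation (interaction -1.55 ± 0.42, adjusted p = 0.06). Slc16a5, a monocarboxylate transporter, went from 44.5 to 53.3 and 106.4 to 126 CPM to 1.72 and 1.13 against 1.53 and 1.52 CPM (interaction -0.99 ± 0.25, adjusted p = 0.0654). Summed CD8 lineage markers were lower after stimulation and higher in CtslΔTEC than in Ctsl+/+ cells in both states, and their part in these values was not tested. Cd1d1, an antigen-presenting molecule of DP cells, reversed from 0.38 to -0.65 (interaction adjusted p = 0.00497). Cdk6, described above, and Themis (-0.90) were the other members called, while Cd8b1 was not called, at 27.4 to 34.7 CPM in Ctsl+/+ and 118 to 153 CPM in CtslΔTEC cells at rest and 10.3 and 8.89 against 35.4 and 35.2 CPM after stimulation (interaction -0.31 ± 0.18, adjusted p = 0.437).

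TCR signal attenuators went both ways, with 5 positive and 3 negative interactions among 46 tested, leave-out counts of 3, 9, 5 and 6 and 5 calls by limma-voom. Cd5, a scavenger receptor that dampens TCR signals, was at 273, 401, 354 and 319 CPM in Ctsl+/+ and 156, 184, 152, 144 and 162 CPM in CtslΔTEC cells at rest, and at 1798 and 1762 against 1509 and 1390 CPM after stimulation. It was lower in every CtslΔTEC mouse in both states, by 2.11-fold and 1.23-fold (interaction 0.78 ± 0.18, adjusted p = 0.0339), and the call was lost without Ctsl+/+ mouse 5 (adjusted p = 0.119) or CtslΔTEC mouse 6 (adjusted p = 0.154). Cd6, its close relative, was at 308, 391, 372 and 351 CPM in Ctsl+/+ and 231, 213, 228, 188 and 212 CPM in CtslΔTEC cells at rest, and at 1186 and 1191 against 1204 and 1138 CPM after stimulation, where the groups overlapped (interaction 0.71 ± 0.15, adjusted p = 0.0184). Dusp4, a phosphatase of MAP kinases, was at 2.32, 4.14, 4.24 and 5.94 CPM in Ctsl+/+ and 1.85, 0.786, 0.670, 0.600 and 1.37 CPM in CtslΔTEC cells and reached 169 and 172 and 164 and 174 CPM (interaction 1.92 ± 0.44, adjusted p = 0.0309, and 0.121 without Ctsl+/+ mouse 5). For all 3, then, a resting deficit of CtslΔTEC cells narrowed at the higher stimulated levels. The other positive members were Cd72 (1.63) and Ptpn2 (0.47). The negative ones were Ubash3a, described above, the adaptor Sla2 (-0.68), and Nfkbie, an inhibitor of NF-kB, at 14.9 to 19.1 CPM in Ctsl+/+ and 20.8 to 22.7 CPM in CtslΔTEC cells at rest and 44.5 and 43.8 against 26.9 and 31.5 CPM after stimulation (interaction -0.90 ± 0.15, adjusted p = 0.00769).

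Activation receptors were likewise split, with 4 positive and 4 negative interactions among 34, leave-out counts of 3, 11, 3 and 4 and 5 calls by limma-voom. Besides Il2ra and Il21r these were Tnfrsf4, which encodes the costimulatory receptor OX40, Cd160, Il2rb, Il2rg, Il4ra and Tnfrsf25. Tnfrsf4 was at 2.56 to 4.69 and 4.17 to 5.61 CPM at rest and at 49.5 and 44.0 against 21.4 and 27.1 CPM after stimulation (interaction -1.31 ± 0.27, adjusted p = 0.0186, and 0.114 without CtslΔTEC mouse 6). Cd160, a receptor for herpesvirus entry mediator, was at 0.805 to 1.52 CPM in Ctsl+/+ and 2.63 to 4.54 CPM in CtslΔTEC cells at rest and at 18.9 and 14.1 against 18.5 and 18.8 CPM (interaction -1.55 ± 0.35, adjusted p = 0.0291, and 0.122 without CtslΔTEC mouse 6 or 0.135 without Ctsl+/+ mouse 5). The other IL-2 receptor chains had interactions of -1.20 for Il2rb and 0.45 for Il2rg, both no longer called without Ctsl+/+ mouse 5, CtslΔTEC mouse 6 or CtslΔTEC mouse 7. Of 32 immediate early and TCR-induced transcription factors, 2 were called (6.2%, near the 6.01% of all genes), Fosl2 and Irf8, both positive. Irf8, an interferon regulatory factor, was at 1.11 to 1.37 and 0.845 to 1.08 CPM at rest and reached 23.3 and 28.4 CPM in Ctsl+/+ and 51.5 and 46.3 CPM in CtslΔTEC cells (interaction 1.20 ± 0.20, adjusted p = 0.00555). Of 17 cytokines and chemokines 1 was called (5.9%, likewise near all genes), Tnfsf8, the ligand of CD30, at 75.2 and 100.5 against 65.9 and 52.2 CPM after stimulation and 9.41 to 13.8 against 14.1 to 28.4 CPM at rest (interaction -1.44 ± 0.31, adjusted p = 0.0212). Nr4a1 and Cd69, 2 readouts of TCR signal strength, were at 3931 and 5180 against 5500 and 5948 CPM and 2764 and 2670 against 3378 and 3279 CPM after stimulation, with interactions of 0.68 ± 0.57 (adjusted p = 0.631) and 0.35 ± 0.21 (adjusted p = 0.476). Pdcd1, which encodes PD-1, had 0.71 ± 0.23 (adjusted p = 0.124). Of 26 NF-kB genes, Nfkbie and the kinase gene Ikbke (-0.61 ± 0.15, adjusted p = 0.0388) were called by edgeR, with leave-out counts of 1, 8, 1 and 3, while DESeq2 called 6. For the transcription factors these counts were 2, 4, 2 and 3, and for the cytokines 2, 3, 1 and 1.

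Death genes gave 4 negative and 0 positive calls among 28 (14.3%), with leave-out counts of 2, 5, 2 and 3 and 1 call by limma-voom. Besides Bcl2l11 these were Bmf, another pro-apoptotic BH3-only gene, Casp9, the initiator caspase of the mitochondrial pathway, and Bcl2a1d, an anti-apoptotic gene with near-identical copies. Bmf was at 7.28, 6.84, 5.46 and 7.61 CPM in Ctsl+/+ and 13, 8.04, 17.2, 14.8 and 21 CPM in CtslΔTEC cells at rest and at 2.78 and 2.72 against 0.812 and 1.14 CPM after stimulation (interaction -2.58 ± 0.50, adjusted p = 0.015). Casp9 was at 6.35 and 3.96 against 3.43 and 2.72 CPM after stimulation (interaction -0.79 ± 0.23, adjusted p = 0.0744, lost without each stimulated mouse but Ctsl+/+ mouse 6). Bcl2a1d was at 0.527 to 0.855 and 1.09 to 1.51 CPM at rest and at 105.8 and 78.9 against 95.6 and 103 CPM after stimulation (interaction -0.96 ± 0.25, adjusted p = 0.0489). The interaction of Bcl2 was 0.28 ± 0.24 (adjusted p = 0.64) and that of Il7r -0.64 ± 0.35 (adjusted p = 0.403). Il7r, the IL-7 receptor, was lower in CtslΔTEC cells in both states, at 72.5 to 105.5 against 35.1 to 62.2 CPM at rest and 47.0 and 32.8 against 14.3 and 9.80 CPM after stimulation.

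The machinery of protein synthesis gave no call or few. Of 63 ribosome biogenesis genes 0 were called by edgeR, 59 had a value above 0 and the median was 0.16 (0.10 without CtslΔTEC mouse 7), and the median response to stimulation was 1.88 in Ctsl+/+ and 2.06 in CtslΔTEC cells. Of 79 cytosolic ribosomal proteins 0 were called. Their median of 0.12 was 0.30 without Ctsl+/+ mouse 5 and turned to -0.06 without Ctsl+/+ mouse 6, and the median levels of both stimulated CtslΔTEC mice lay between those of the 2 stimulated Ctsl+/+ mice. Likewise 0 of 60 respiratory chain subunits, 0 of 15 mitochondrial chaperone genes and 0 of 11 MYC network genes were called. At an unadjusted p under 0.05 the count was 6 for ribosome biogenesis and 0 for the other lists of this kind, and DESeq2 called 4 ribosome biogenesis genes and 0 of the others. Among 56 splicing regulators, 2 were called, both positive, Hnrnpll (0.65 ± 0.16, adjusted p = 0.0457), which controls Cd45 splicing, and Tra2a (0.57 ± 0.16, adjusted p = 0.0669), 46 had a value above 0 and the median was 0.16. DESeq2 called 6 and limma-voom 1 of these 56, with 8 by edgeR at an unadjusted p under 0.05, and the leave-out counts were 0, 4, 0 and 1. Among 27 heat-shock and TRiC chaperones Hsph1 was called (1.03 ± 0.24, adjusted p = 0.031) and 23 had a value above 0. Of 48 translation factors Eif4a1 (0.37) and Eif4ebp1 were called, of 20 aminoacyl-tRNA synthetases Lars (-0.42), of 27 nucleotide synthesis enzymes Dck (-1.59), of 37 cell cycle genes Cdk6 and Ccnd2 (0.92), and of 37 proteasome subunits the immunoproteasome genes Psmb8 (-0.70) and Psmb10 (-1.09). Without Ctsl+/+ mouse 6 the calls were 6 for the synthetases and 4 for the cell cycle genes, and DESeq2 called 2 and 4. Among the genes named here, Eif4ebp1, Cdk6 and Psmb10 kept their calls without each stimulated mouse. Of 10 sterol efflux genes Nr1h3, the LXRα receptor, was called, with 0 counts in both stimulated CtslΔTEC mice against 0.529 and 0.194 CPM in the stimulated Ctsl+/+ mice, and it missed the threshold in 3 of the 4 fits without 1 stimulated mouse.

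Of 14 genes and proteins that the study follows, 4 were called, Ccr8, Cd6, Cd5 and Slc16a5. For Cd44, an adhesion receptor of activated cells, the genotypes differed in both states, at 49.9 to 57.9 CPM in Ctsl+/+ and 22.2 to 33.4 CPM in CtslΔTEC cells at rest and 212 and 359.9 against 134 and 114 CPM after stimulation, and the interaction was -0.19 ± 0.25 (adjusted p = 0.795). Tmie, at 27.2 to 48.4 CPM in Ctsl+/+ and 139 to 184 CPM in CtslΔTEC cells at rest and at 4.37 and 2.87 against 3.88 and 7.14 CPM after stimulation, missed the threshold (interaction -1.21 ± 0.39, adjusted p = 0.116). Btla, an inhibitory receptor, had an interaction of 0.21 ± 0.29 (adjusted p = 0.807), and Cd4 of 0.01 ± 0.13 (adjusted p = 0.993). A value that misses the threshold with 2 stimulated mice per genotype does not show that the response was equal.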

How the data were processed

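RNA-seq had been done on sorted M2 CD4SP thymocytes of 13 mice, 1 library per mouse. The labels describe polyA RNA and floxed controls where the study's methods describe rRNA depletion and Ctsl+/+ controls, which the files do not settle. Per the labels, the authors quantified transcripts with kallisto 0.48, and the deposited files hold estimated counts, which were not normalized, TPM and effective lengths. Here the estimated counts were summed to genes with GENCODE M21 (GRCm38) and rounded, and TPM was summed for the marker lists. At most 0.461% of a library's counts were on the 1100 of 117497 transcripts without a match, and each library had 8085463 to 39127833 estimated counts, so the shallowest, stimulated Ctsl+/+ mouse 5, gives the least precise values for low genes.

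Genes passing filterByExpr (14241) were tested in 1 model of 4 groups with edgeR 4.0.16 in R 4.3.3 (TMM factors, quasi-likelihood, 9 residual degrees of freedom, Benjamini-Hochberg over all genes, threshold 0.1). All adjusted p values in the text come from this fit unless another is named, errors of log2 values are SE, and CPM values use the TMM-scaled totals. Each library is 1 mouse, and with 2 stimulated mice per genotype the spread was estimated mostly from unstimulated mice. Alternatives used DESeq2 1.42.0, limma 3.58.1 (voom), other scalings and filters, covariates and left-out libraries. The fit was tested on simulated data with known changes.

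The lists and the groups of genes were chosen with earlier results of these data known. Genes were named by a rule: the 10 largest per direction and 4 per class by p value among protein-coding genes called in every fit without 1 stimulated mouse and at a mean of at least 3 log2 CPM, up to 4 called members per list, and the genes the study follows. Further called members of a list were named after their values were seen, and 1 is not reported here. In the promoter windows (Python 3.11.15), 7 strings were searched on both strands, and beside those given in the results TGANTCA stood in 6.43%, TGACGTCA in 3.45% and GGAANTCCC in 2.65% of all tested genes with a window. Sequences are from RefSeq.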

Additional observations from a re-analysis of the deposited data

Results flagged for a closer look

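The genotype effect differed between the unstimulated and stimulated state, by the interaction test, for 856 genes, and for 31 of them it passed the threshold in both states with opposite signs. The 4 reversing genes with the smallest p values were Lpin1, with an interaction of -1.62 ± 0.17 (SE, log2), Spata13 with -1.05 ± 0.12, Letm2 with -1.62 ± 0.20 and Bcl2l11 with -1.21 ± 0.16.

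Single unstimulated mice lay apart from the others of their group in 15 of 256 group values examined, and chance alone gives about 1 in 20. Low CPM values in Ctsl+/+ mice were those of Ifi206 in mouse 3 (117.7, others 141.2 to 144.7), Rnf144a in mouse 4 (27.0, others 38.0 to 39.1), Sc5d in mouse 4 (25.2, others 33.8 to 35.8) and Tmie in mouse 2 (27.2, others 45.7 to 48.4). High values in Ctsl+/+ mice were those of Bcl2a1d in mouse 3 (0.855, others 0.527 to 0.561) and Nr4a1 in mouse 4 (130, others 50.6 to 55.7). Among CtslΔTEC mice, mouse 1 was low for Nab1 (97.2, others 115.3 to 123.5), Ifi47 (129.9, others 153.0 to 161.4), Ifi209 (191.4, others 243.3 to 260.6) and Tra2a (112.5, others 130.9 to 136.7), and high for Mvk (10.8, others 8.30 to 8.88). Mouse 4 was low for Ccr8 (0.0300, others 0.125 to 0.152) and Nsdhl (8.45, others 10.7 to 11.5), and mouse 5 was high for Neurl3 (46.7, others 31.8 to 34.2). Ribosomal protein transcripts took 15.9% of TPM in CtslΔTEC mouse 2 against 18.5% to 19.5% in the others.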

How the results depend on the processing

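The reported model called 856 genes, 161 positive and 695 negative. DESeq2 called 1050 (309 positive), limma-voom 323 (97 positive, 226 negative), a threshold of 0.05 gave 471 (86 positive, 385 negative), the unstimulated libraries of the second date alone gave 743 (252 positive), and the retained-intron share as a covariate, an alternative chosen after seeing the data, gave 572 (460 negative). Without 1 mouse in turn the counts ran from 334 to 1227 in all, 49 to 340 positive and 272 to 887 negative. The lowest totals came without stimulated CtslΔTEC mouse 6 (334) and Ctsl+/+ mouse 5 (340) and the highest without Ctsl+/+ mouse 6 (1227). In the fits without unstimulated CtslΔTEC mice 3 and 2 there were 399 and 438 negative calls. The other scalings, filters and covariates gave 661 to 1064 genes. Of the 856 genes, DESeq2 shared 798, voom 316, the second date alone 596 and the retained-intron covariate 518. The other scalings, filters and covariates shared from 559 (transcript-length offset) to 855 (date of the unstimulated files as a factor). All shared genes had the same sign. The share of negative calls ran from 66.1% to 86.8% and the share with the larger response in CtslΔTEC cells from 75.0% to 87.0% over the alternatives that called genes, an order that the choice of genes largely fixes. The cause of these shifts was not tested. Of 110 called genes named, 52 lost the call without stimulated Ctsl+/+ mouse 5, 45 without CtslΔTEC mouse 6, 38 without CtslΔTEC mouse 7 and 6 without Ctsl+/+ mouse 6. Those lost without any of Ctsl+/+ mouse 5, CtslΔTEC mouse 6 and CtslΔTEC mouse 7 in turn included Nr1h3, Insig1, Psph, Pmvk, Ccnd2, Gimap7, Mvk, Slc16a5, Tra2a, Themis, Dtx3l, Acly, Casp9, Ldhb, Sc5d, Mthfd1l, Il2rb, Acadm, Lars, Nsdhl, Msmo1 and Il2rg, and Gbp2, Il4ra, Ptpn2 and Eif4a1 were lost without each of the 4 stimulated mice. Calls lost without Ctsl+/+ mouse 5 and without CtslΔTEC mouse 6 were those of Cd160, Sla2, Cd5, Dck, Ifi209, Ikbke, Hnrnpll, Bcl2a1d, Fdps, Psmb8, Gbp8, Mvd, Tcf7 and Lss, and without Ctsl+/+ mouse 5 and without CtslΔTEC mouse 7 those of Shmt1, Got1, Cd72, Gimap1, Tnfrsf25, Gimap4, Gbp7 and Dntt. Dusp4 and Hsph1 were lost without Ctsl+/+ mouse 5 alone, Dhcr7, Tnfrsf4 and Slfn2 without CtslΔTEC mouse 6 alone, Igtp without CtslΔTEC mouse 7 alone, Gimap8 without each stimulated mouse but Ctsl+/+ mouse 5, and Acaa2 without each but CtslΔTEC mouse 6. No named gene that was called changed sign under any alternative run.

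With mouse number as a replicate block, 0 genes were called in either direction (0 positive, 0 negative) by edgeR, with 1471 at an unadjusted p under 0.05. Whether mouse numbers pair the samples is not settled. The deviations of same-numbered unstimulated mice correlated at -0.135, 0.298, -0.0727 and -0.147, without a comparison to differently numbered mice. The stimulated groups share 1 number only, mouse 6.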
